A study of Rattus norvegicus with 9 samples.

Results

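The insulin-like growth factor (IGF) and insulin signalling components described here are 7 genes: the ligands Igf1 and Igf2, the receptors Igf1r, Insr and Igf2r, and the binding proteins Igfbp2 and Igfbp5. They were represented by all 14 probe sets annotated to 1 of these symbols alone, among 15866 non-control probe sets, and 10 of the 14 lay above the filter on low signal, among 9520 in all. Gene expression was measured on Affymetrix arrays in dorsal root ganglia (DRG), which hold the cell bodies of sensory neurons with their satellite glia, Schwann cells and connective tissue sheath. The animals were Sprague-Dawley rats, and the ganglia came from lumbar levels L4 to L6. STZ FK1706 rats were injected with streptozotocin (STZ), which destroys the beta cells of the pancreas and so causes diabetes, and were given FK1706, an immunophilin ligand. STZ vehicle rats were injected with STZ and were given vehicle, and normal vehicle rats had no STZ and were also given vehicle. No normal group given FK1706 is among the samples, and the sources used here state neither the FK1706 dose nor the age or sex of the rats. Dosing lasted 1, 2 or 3 weeks, and ganglia were removed 1 day later. Each array carries RNA mixed in equal amounts from 5 rats, and each of the 3 groups has 1 array per week, 9 in all. Thus p-values rest on the spread between pools that is left after group and week. With 1 pool per group and week, that spread cannot be told apart from group differences that change with week. Every SD over 3 pools includes differences between weeks.

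The members were chosen by group differences of these arrays. Earlier differences between STZ vehicle and normal vehicle pools named Igf1, Igfbp5 and Igf2r, and those between STZ FK1706 and STZ vehicle pools named Igf1r and Insr, while the values behind the choice of Igf2 and Igfbp2 are not given. Group differences are therefore a description without a test, and differences between weeks, which are not known to have entered the choice, were tested.

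IGF-1 and IGF-2 act through the IGF-1 receptor and, with insulin, through the insulin receptor, which are tyrosine kinases that signal through IRS adaptors to the PI3K and Akt route and to the MAPK route. Most extracellular IGF is held by binding proteins, which can limit or prolong its access to receptors, and the cation-independent mannose 6-phosphate receptor, product of Igf2r, takes IGF-2 into lysosomes without such a kinase. IGF-1 and insulin are known as survival and neurite outgrowth factors for sensory neurons, and a reduced supply of both is a feature described in diabetic nerve.

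The 250 bases before a start in the RefSeq promoter table of build GRCr8 are shown for 4 genes. Each window is read 5′ to 3′ on the strand of its gene. The Igfbp2 and Igfbp5 windows end at the edge of the gene span. The Igf1 and Insr windows lie inside the gene span, which is 24169608 to 24249446 for Igf1 and 5991135 to 6129275 for Insr. Igf1 (chr7:24172282-24172531, + strand) and Igfbp5 (chr9:81914188-81914437, − strand) are shown because both were lower in STZ vehicle pools. Igfbp2 (chr9:81864561-81864810, + strand) is shown as the neighbour of Igfbp5, with 0 protein-coding genes between them. Insr (chr12:6128804-6129053, − strand) is shown because it was the 1 member with the FoxO motif. Capitals mark matches, on either strand, to any of 5 motifs. The TATA box was searched as TATAAA, the CCAAT box by the letters of its name, the GC box as GGGCGG, the FoxO site as GTAAACA and the AP-1 site as TGACTCA.
Igf1: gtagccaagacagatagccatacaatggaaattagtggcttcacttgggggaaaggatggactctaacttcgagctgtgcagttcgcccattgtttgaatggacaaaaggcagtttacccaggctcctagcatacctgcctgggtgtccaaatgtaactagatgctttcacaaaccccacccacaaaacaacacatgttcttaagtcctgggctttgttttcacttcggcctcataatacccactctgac
Igfbp5: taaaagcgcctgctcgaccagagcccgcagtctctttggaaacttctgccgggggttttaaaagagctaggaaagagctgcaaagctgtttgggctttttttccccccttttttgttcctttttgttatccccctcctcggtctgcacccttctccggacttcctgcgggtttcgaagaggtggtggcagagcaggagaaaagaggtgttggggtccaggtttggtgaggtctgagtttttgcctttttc
Igfbp2: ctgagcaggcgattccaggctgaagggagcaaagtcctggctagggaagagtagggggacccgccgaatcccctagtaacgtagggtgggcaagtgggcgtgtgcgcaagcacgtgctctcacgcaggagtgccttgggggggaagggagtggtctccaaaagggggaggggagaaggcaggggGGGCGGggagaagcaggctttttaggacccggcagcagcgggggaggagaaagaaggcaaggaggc
Insr: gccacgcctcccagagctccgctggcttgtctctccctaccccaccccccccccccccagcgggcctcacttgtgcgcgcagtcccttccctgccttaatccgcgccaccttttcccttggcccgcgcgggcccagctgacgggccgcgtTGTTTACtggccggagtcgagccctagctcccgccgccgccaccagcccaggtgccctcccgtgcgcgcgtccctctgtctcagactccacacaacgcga
The Igf1 and Igfbp5 windows held 0 of the 5 motifs, at 46.8% and 51.6% G and C, against a median of 51.2% over 33469 promoter windows of the same length. The Igfbp2 window, at 64% G and C, held 1 GC box, a motif found in 30.5% of all windows. The Insr window, at 71.2%, held 1 FoxO motif on the opposite strand, found in 3.21% of all windows. TATA, CCAAT and AP-1 motifs, found in 12.9%, 34% and 4.05% of all windows, were in 0 of the 4 windows shown. All 7 genes had a window in the table, Igf2 with 2, and a match describes letters only.

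Facts of the whole series bear on every value below. The 2% trimmed mean of the deposited signal was 361 in the week 3 STZ FK1706 array, the dimmest, and 534 in the week 1 normal vehicle array, the brightest. Arrays were therefore put on 1 scale by quantile normalization of log2(signal + 18.7), and levels and differences are given on that scale unless the deposited signal is named. Without that step, the median over all probe sets of the log2 difference was -0.10 between STZ vehicle and normal vehicle, -0.07 between STZ FK1706 and STZ vehicle, and -0.17 between STZ FK1706 and normal vehicle. The neuronal label of the tissue was borne out by its markers, since 14 of 14 sensory neuron markers with a probe set passed the filter. Among them Prph, an intermediate filament protein of sensory and other peripheral neurons, lay at the 99.6th percentile of mean signal. In bulk RNA, fewer cells of a type and less RNA per cell cannot be told apart. With limma over all 9520 probe sets, 6 passed at an adjusted p under 0.05 in STZ vehicle against normal vehicle (0.063%, 828 at an unadjusted p under 0.05), 0 in STZ FK1706 against STZ vehicle (0%, 321 unadjusted) and 0 in STZ FK1706 against normal vehicle (0%, 777 unadjusted). Of the 10 member probe sets, 1 was among the 6, and 0 were called in the other comparisons (5, 1 and 6 at an unadjusted p under 0.05, in the same order of comparisons). The 1 called, Igf1 1388469_at, was not called without any single STZ vehicle array, nor without the normal array of week 2 or of week 3. These counts come from contrasts used in the choice and carry no weight for the members.

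Igf1, the growth factor that liver secretes and that many tissues also make locally, was lower in STZ pools than in normal pools. Its probe set 1388469_at read 8.79, 8.56 and 8.25 in STZ FK1706 pools at weeks 1, 2 and 3, 8.67, 8.46 and 8.18 in STZ vehicle pools, and 9.36, 9.22 and 9.09 in normal vehicle pools. The 6 STZ pools all lay below the 3 normal pools, and the STZ FK1706 and STZ vehicle pools overlapped. In deposited signal units these were 456.6, 335.8 and 243.8 in STZ FK1706 pools, 460, 317.5 and 236 in STZ vehicle pools, and 789.5, 648.9 and 464.5 in normal vehicle pools. The mean was 8.44 ± 0.25 in STZ vehicle pools and 9.23 ± 0.14 in normal vehicle pools (SD, n = 3 each), a difference of -0.79 (SE 0.10, 95% interval -1.01 to -0.57) or 1.73-fold lower on the offset scale. The weekly differences were -0.69, -0.77 and -0.91, so the gap was present in each week. STZ FK1706 pools stood at 8.53 ± 0.27, which was 0.10 above STZ vehicle pools (SE 0.10, 95% interval -0.12 to 0.32) and -0.69 from normal vehicle pools (SE 0.10).

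The second Igf1 probe set, 1370333_a_at, gave the same picture at weeks 2 and 3 but not at week 1. It read 8.77, 8.35 and 8.22 in STZ FK1706 pools, 8.85, 8.19 and 8.27 in STZ vehicle pools and 8.70, 9.16 and 9.12 in normal vehicle pools at weeks 1, 2 and 3. The normal pool of week 1 was the lowest of its group and lay below both STZ pools of that week, so the groups overlapped. STZ vehicle pools differed from normal vehicle pools by -0.56 on average (SE 0.19), with 0.15 at week 1, -0.97 at week 2 and -0.85 at week 3. Single normal arrays moved this mean, which was -0.88 without week 1, -0.39 without week 2 and -0.40 without week 3. STZ FK1706 and STZ vehicle pools differed by 0.01 (SE 0.19, 95% interval -0.41 to 0.44). Over the 9 arrays, which share groups and weeks, the 2 probe sets of Igf1 correlated with r = 0.81, and they disagreed on the STZ difference in week 1 only.

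**Figure D1:**
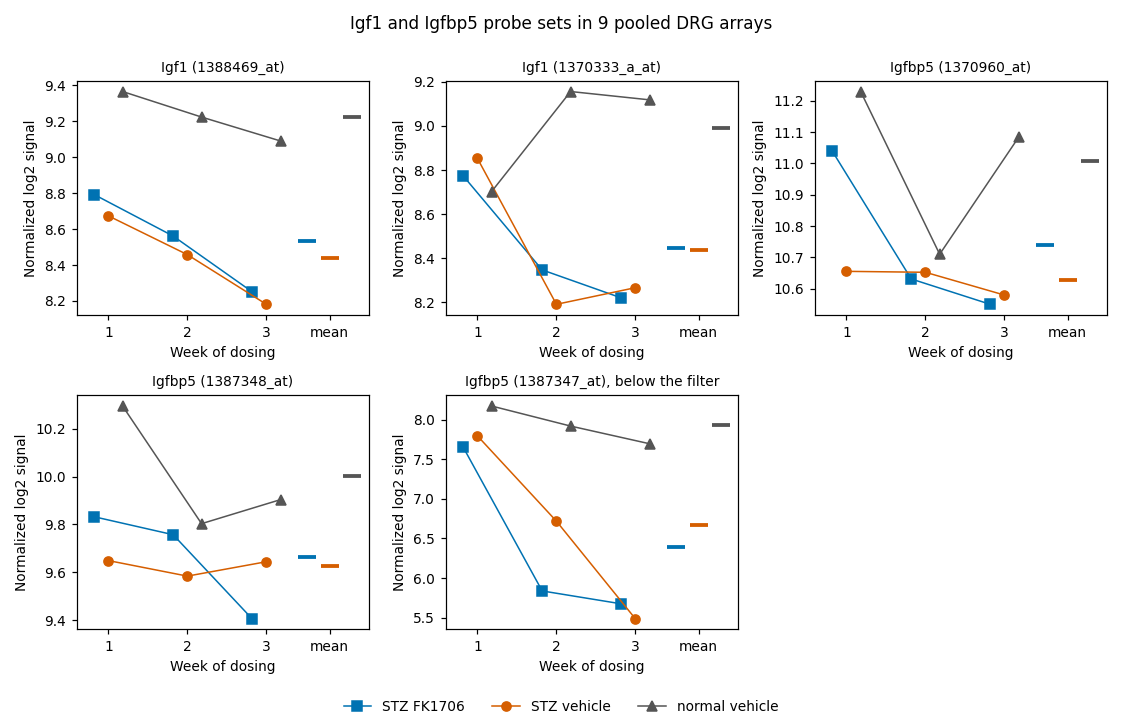
Normalized log2 signal (y axis) of the 2 Igf1 and 3 Igfbp5 probe sets by week of dosing (x axis), with STZ FK1706 as blue squares, STZ vehicle as orange circles and normal vehicle as grey triangles, 1 pool per point and group means as short bars. For Igf1 probe set 1388469_at the 3 normal pools, at 9.09 to 9.36, lie above all 6 STZ pools, at 8.18 to 8.79, and for Igfbp5 probe set 1387347_at the STZ pools of weeks 2 and 3 lie between 5.48 and 6.72.

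Igf2, a fetal growth factor that persists in the adult meninges and choroid plexus, showed no separation of the groups. Its probe set above the filter, 1367571_a_at, read 9.05, 8.73 and 9.13 in STZ FK1706 pools, 8.97, 8.81 and 9.04 in STZ vehicle pools and 9.13, 8.80 and 8.52 in normal vehicle pools at weeks 1, 2 and 3. The 3 groups overlapped, and the normal pool of week 3 was the lowest of the 9. STZ vehicle differed from normal vehicle by 0.12 (SE 0.14, 95% interval -0.19 to 0.43), made up of -0.16, 0.01 and 0.52 in the 3 weeks. STZ FK1706 differed from STZ vehicle by 0.03 (SE 0.14, 95% interval -0.28 to 0.34). Without the normal week 3 array the STZ vehicle difference was -0.09, so its sign rested on that array. The other Igf2 probe sets, 1388252_at, 1371206_a_at and 1398322_at, were below the filter, with 26 of 27 deposited signals between 5.6 and 21.4 units and 1 signal of 48.7 units, for 1388252_at in the week 2 STZ FK1706 pool. The summed signal of 4 meningeal markers, cells that make Igf2, overlapped between groups too, at 9473 to 13228 in STZ FK1706 pools, 9497 to 12979 in STZ vehicle pools and 10674 to 12181 in normal vehicle pools.

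**Figure D2:**
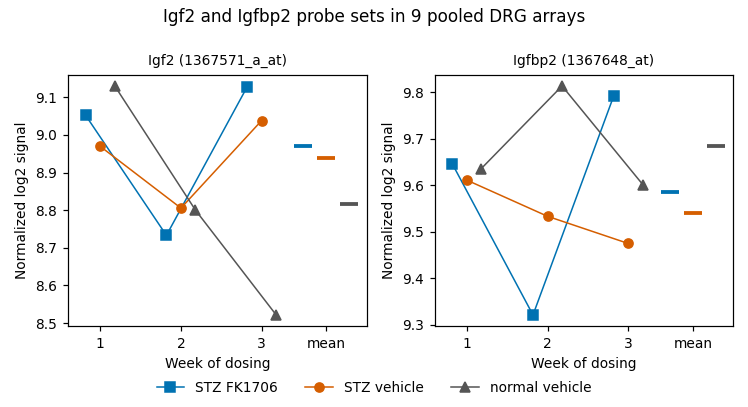
Normalized log2 signal (y axis) of Igf2 probe set 1367571_a_at and Igfbp2 probe set 1367648_at by week of dosing (x axis), with symbols and mean bars for STZ FK1706, STZ vehicle and normal vehicle as labelled, 1 pool per point. The groups overlap in both panels, and the Igf2 values part at week 3, at 9.13 in STZ FK1706, 9.04 in STZ vehicle and 8.52 in normal vehicle.

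Igfbp5, a binding protein that is secreted and held in the extracellular matrix, was lower in STZ vehicle pools by both probe sets above the filter. Probe set 1370960_at read 11.04, 10.63 and 10.55 in STZ FK1706 pools, 10.66, 10.65 and 10.58 in STZ vehicle pools and 11.23, 10.71 and 11.08 in normal vehicle pools at weeks 1, 2 and 3. The STZ vehicle pools lay below all normal pools, by a margin that was small at week 2, and the STZ FK1706 pool of week 1 stood among the normal values. STZ vehicle averaged 10.63 ± 0.04 and normal vehicle 11.01 ± 0.27 (SD, n = 3 each), a difference of -0.38 (SE 0.11, 95% interval -0.62 to -0.14). Its weekly parts were -0.57, -0.06 and -0.50. STZ FK1706 differed from STZ vehicle by 0.11 (SE 0.11), with 0.38 at week 1 and -0.02 and -0.03 later, so the positive mean came from the first week.

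Probe set 1387348_at read 9.83, 9.76 and 9.41 in STZ FK1706 pools, 9.65, 9.58 and 9.64 in STZ vehicle pools and 10.30, 9.80 and 9.90 in normal vehicle pools. Again all STZ vehicle pools lay below the normal pools, and the STZ FK1706 pool of week 1 overlapped the normal range. STZ vehicle differed from normal vehicle by -0.37 (SE 0.12) and STZ FK1706 from STZ vehicle by 0.04 (SE 0.12, 95% interval -0.21 to 0.29). Over the 9 arrays the 2 Igfbp5 probe sets correlated with r = 0.87.

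The third Igfbp5 probe set, 1387347_at, had the widest spread of the 14 but a mean below the filter, at percentile 33.1 of all probe sets. Its deposited signal was 191.1, 33.5 and 26.5 units in STZ FK1706 pools, 234.1, 82.4 and 24.2 units in STZ vehicle pools and 330.5, 245.9 and 172.3 units in normal vehicle pools at weeks 1, 2 and 3. The values of the STZ pools at weeks 2 and 3 were the lowest 4 of the 9. On the normalized scale STZ vehicle differed from normal vehicle by -0.38, -1.20 and -2.21 in the 3 weeks, with a mean of -1.26 (SE 0.36 in a fit without the filter). STZ FK1706 differed from normal vehicle by -0.52, -2.08 and -2.02. On the normalized scale the STZ FK1706 and normal pools did not overlap, while in deposited units the week 1 STZ FK1706 pool lay above the week 3 normal pool.

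Igfbp2, a binding protein made by glia and by the meninges among other cells, overlapped between all groups. Probe set 1367648_at read 9.65, 9.32 and 9.79 in STZ FK1706 pools, 9.61, 9.53 and 9.48 in STZ vehicle pools and 9.64, 9.81 and 9.60 in normal vehicle pools. STZ vehicle was -0.14 from normal vehicle (SE 0.12, 95% interval -0.41 to 0.13), and its sign was negative in each week, at -0.02, -0.28 and -0.13. Without the normal week 2 array the difference was -0.011. STZ FK1706 was 0.05 from STZ vehicle (SE 0.12, 95% interval -0.22 to 0.32), with weekly values of 0.03, -0.21 and 0.32 on both sides of 0. Igfbp2 and Igfbp5 are genomic neighbours, and their differences between STZ vehicle and normal vehicle, -0.14 and -0.38, have overlapping intervals. The difference between these 2 genes was not tested.

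Igf1r, the tyrosine kinase receptor for IGF-1 and IGF-2, was higher in STZ FK1706 pools than in both other groups. Its only probe set, 1368123_at, read 8.11, 8.46 and 8.38 in STZ FK1706 pools, 7.87, 7.99 and 8.11 in STZ vehicle pools and 7.88, 7.79 and 8.03 in normal vehicle pools at weeks 1, 2 and 3. The lowest STZ FK1706 pool, of week 1, stood only just above the highest STZ vehicle pool, of week 3, and the groups did not overlap. STZ FK1706 averaged 8.32 ± 0.18 and STZ vehicle 7.99 ± 0.12 (SD, n = 3 each), a difference of 0.33 (SE 0.13, 95% interval 0.05 to 0.60) or 1.25-fold. The weekly values were 0.24, 0.47 and 0.26. Against normal vehicle the STZ FK1706 difference was 0.42 (SE 0.13) and the STZ vehicle difference 0.09 (SE 0.13), the last of which was -0.01 on the deposited scale. The STZ vehicle difference was 0.16 without the normal week 1 array and 0.0004 without the normal week 2 array. The 3 comparisons share arrays, so their values stand side by side and do not support each other.

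Insr, the insulin receptor, had the same order of group means. Probe set 1369051_at read 7.57, 7.74 and 7.78 in STZ FK1706 pools, 7.43, 7.43 and 7.58 in STZ vehicle pools and 7.24, 7.47 and 7.40 in normal vehicle pools. The week 1 STZ FK1706 pool lay below the week 3 STZ vehicle pool, so those 2 groups overlapped, while STZ FK1706 lay above all normal pools. STZ FK1706 differed from STZ vehicle by 0.21 (SE 0.14, 95% interval -0.09 to 0.52), with 0.14, 0.30 and 0.20 in the 3 weeks. It differed from normal vehicle by 0.33 (SE 0.14), and STZ vehicle differed from normal vehicle by 0.12 (SE 0.14). Of the 14 probe sets, Insr had the mean just inside the filter, at 7.51 against a limit of 7.36, and Igfbp5 1387347_at the mean just outside it, at 6.99.

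Igf2r, the receptor that takes IGF-2 into lysosomes, separated STZ pools from normal pools by 1 of its 2 probe sets. Both gave positive mean differences from normal vehicle of similar size, with a larger SE for 1367636_at. Probe set 1386872_at read 9.87, 9.99 and 9.86 in STZ FK1706 pools, 9.90, 10.01 and 9.93 in STZ vehicle pools and 9.77, 9.84 and 9.72 in normal vehicle pools. All 6 STZ pools lay above the 3 normal pools, with STZ vehicle 0.17 above normal vehicle (SE 0.08, weekly 0.13, 0.17 and 0.21) and STZ FK1706 0.13 above it (SE 0.08). Probe set 1367636_at read 8.37, 8.86 and 9.15 in STZ FK1706 pools, 8.74, 8.57 and 9.08 in STZ vehicle pools and 8.77, 8.46 and 8.71 in normal vehicle pools, and the groups overlapped. Its STZ vehicle difference from normal vehicle was 0.15 (SE 0.16), at 0.33 without the normal week 1 array and 0.02 without the normal week 3 array. Its STZ FK1706 difference from STZ vehicle was -0.0027 (SE 0.16, 95% interval -0.35 to 0.34). Over the 9 arrays the 2 probe sets correlated with r = 0.07, and the separation seen with 1386872_at was not seen with 1367636_at. On the deposited scale, with its median shift of -0.17, both Igf2r differences between STZ FK1706 and normal vehicle had a negative sign.

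**Figure D3:**
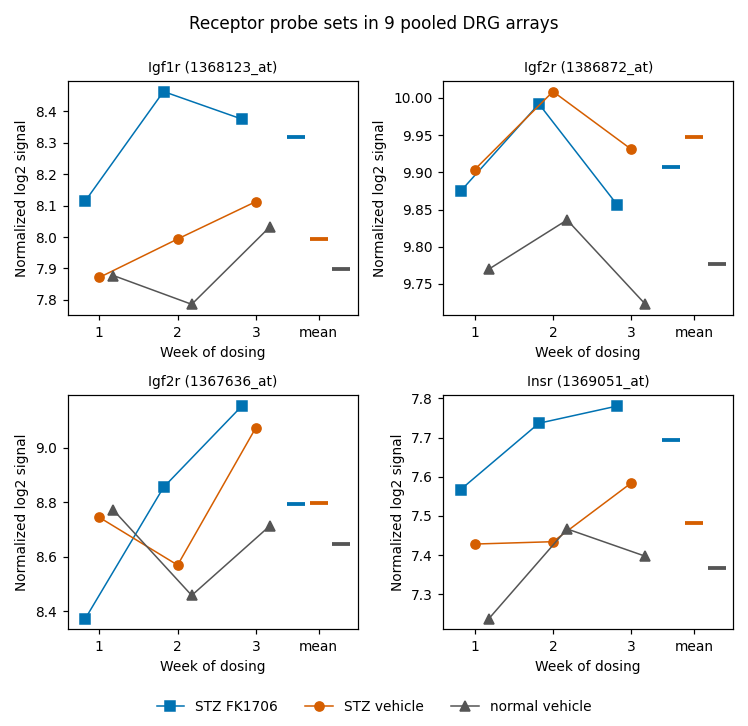
Normalized log2 signal (y axis) of the receptor probe sets by week of dosing (x axis), with STZ FK1706 as blue squares, STZ vehicle as orange circles, normal vehicle as grey triangles, 1 pool per point and group means as short bars. Igf1r lies between 8.11 and 8.46 in STZ FK1706 pools, between 7.87 and 8.11 in STZ vehicle pools and between 7.79 and 8.03 in normal vehicle pools, and each panel has its own y axis.

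Counted over the 10 member probe sets above the filter, the STZ vehicle pools lay wholly below the normal pools for 3 (Igf1 1388469_at and both Igfbp5), against 6.62% of all 9520 probe sets, and wholly above for 1 (Igf2r 1386872_at), against 6.13%. The STZ FK1706 pools lay wholly above the STZ vehicle pools for 1, Igf1r, against 3.3% of all. Against normal pools, the STZ FK1706 pools lay wholly below for 1, Igf1, against 5.97% of all, and wholly above for 3 (Igf1r, Insr and Igf2r 1386872_at), against 5.89%. The same contrasts were used in the choice of members, so these counts only describe them. The median difference of the 10 was -0.02 for STZ vehicle against normal vehicle and 0.04 for STZ FK1706 against STZ vehicle, beside medians over all probe sets of 0.0048 and -0.0002. Of the 10 differences between STZ FK1706 and STZ vehicle, 8 were positive on the quantile scale, 9 with arrays set to a common trimmed mean and 4 on the deposited scale, whose median over all probe sets was -0.07.

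**Figure D4:**
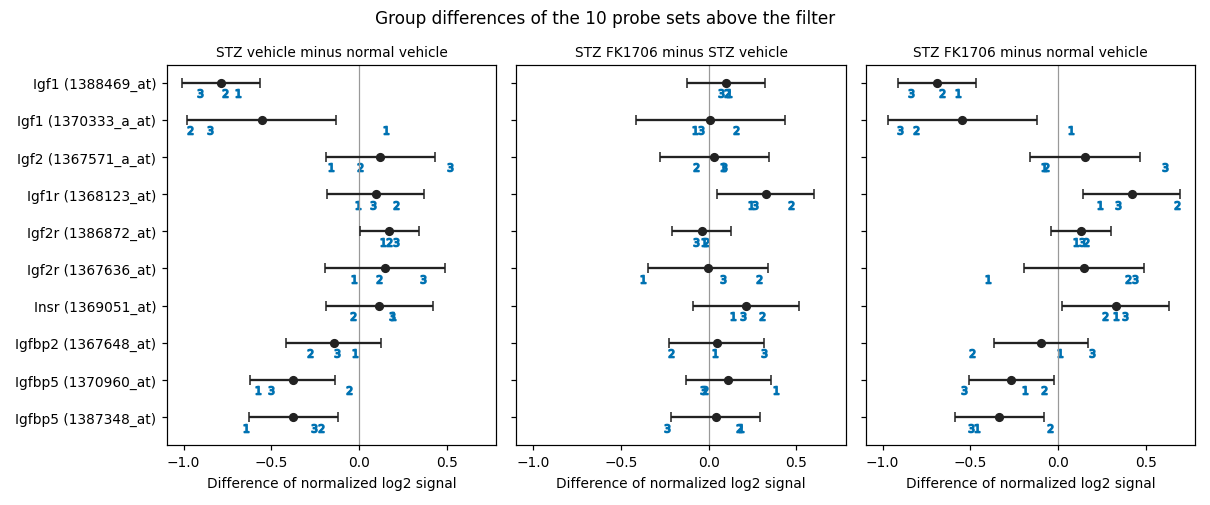
Differences of normalized log2 signal (x axis) for the 10 member probe sets above the filter (y axis), in 3 panels for STZ vehicle minus normal vehicle, STZ FK1706 minus STZ vehicle and STZ FK1706 minus normal vehicle. Black points with bars are the fitted difference and its 95% interval, and the blue digits 1, 2 and 3 under each are the single weekly differences; Igf1 1388469_at, at -0.79 and -0.69, has its 3 weekly values left of 0 in both panels against normal, and Igf1r has its 3 weekly values right of 0 against STZ vehicle.

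The tests over weeks asked whether the members differed between weeks in all groups together. The trimmed mean of the deposited signal also fell with week in each group. At weeks 1, 2 and 3 it was 534, 485 and 386 in normal vehicle arrays and 517, 423 and 366 in STZ vehicle arrays. In STZ FK1706 arrays it was 466, 408 and 361. Time on dosing and other differences between the arrays of each week therefore cannot be told apart. Over all probe sets 5 passed the moderated F test of limma (0.0525%), and 1019 had a p under 0.05 before adjustment. Of the 10 member probe sets 0 passed, and 2 had a p under 0.05 before adjustment. Those 2 were Igf1 1388469_at and Igfbp5 1370960_at. Igf1 1388469_at was -0.44 at week 3 against week 1 (SE 0.10, F test adjusted p = 0.255 by limma), lower in 3 of 3 groups. Igfbp5 1370960_at was -0.24 (SE 0.11, adjusted p = 0.451 by limma), also lower in 3 of 3 groups. Igfbp5 1387347_at, in the fit without the filter, was -1.59 (SE 0.36, adjusted p = 0.369 by limma). Without normalization the median over all probe sets was -0.43 at week 3 against week 1. Igf1r, Insr and Igf2r 1367636_at had positive week differences on the quantile scale, at 0.22, 0.18 and 0.35, and a negative sign on the deposited scale. Igf2r 1386872_at was at -0.01. Fibroblast and matrix genes moved with the week differences of Igf1 and Igfbp5: 8 of 10 were lower at week 3 than at week 1, with a median of -0.26, and 7 had an F test p under 0.05 before adjustment. The 1 that passed, the collagen Col3a1, fell by 0.37 (limma adjusted p = 0.0443). With any 1 STZ FK1706 array left out, or the STZ vehicle array of week 1 or 3, or the normal array of week 3, 0 probe sets passed over weeks, Col3a1 included. The fall was not particular to this list. Of the cartilage and bone genes 5 of 6 were lower at week 3, with a median of -0.29. Both red blood cell genes were lower, with a median of -0.28. Other lists went the other way, with 3 of 4 neutrophil and mast cell genes higher (median 0.36) and 6 of 7 skeletal muscle genes (median 0.13). The lists were chosen with earlier results of these data known, and the part of these cells in the week differences was not tested.

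A further model asked whether a group difference grew or shrank per week. For STZ vehicle against normal vehicle 0 of 9520 probe sets passed (0%, 394 at an unadjusted p under 0.05), and for STZ FK1706 against STZ vehicle 0 passed (0%, 336 unadjusted). For the members these numbers were 0 (2 unadjusted) and 0 (0 unadjusted). The 2 were Igf1 1370333_a_at, whose STZ vehicle difference changed by -0.50 per week (SE 0.18, adjusted p = 0.999 by limma), and Igf2 1367571_a_at, at 0.34 per week (SE 0.14, adjusted p = 0.999 by limma). For Igf1 the weekly difference of week 1, 0.15, stood apart from the others, and for Igf2 that of week 3, 0.52. Igf1 1388469_at had -0.11 per week (SE 0.13), within its error. For Igfbp5 1387347_at, without the filter, it was -0.92 per week (SE 0.32, adjusted p = 0.992 by limma).

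Of 86 other genes listed for the pathway, 72 had a probe set of their own and 52 passed the filter. With limma, 0 of the 52 passed in STZ vehicle against normal vehicle (2 at an unadjusted p under 0.05), 0 in STZ FK1706 against STZ vehicle (0 unadjusted) and 0 in STZ FK1706 against normal vehicle (5 unadjusted). Their median differences were 0.02, 0.01 and 0.02 in those comparisons, beside medians over all probe sets of 0.0048, -0.0002 and 0.0038. The insulin genes Ins1 and Ins2, the growth hormone receptor Ghr and the insulin receptor relative Insrr were below the filter.

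Among the other binding proteins and the proteases that free or degrade the ligands, 7 genes were tested and 0 passed, with differences between STZ vehicle and normal vehicle from 0.02 for Igfbp4 to 0.13 for Htra1 on the quantile scale. Htra1, a secreted protease that can cut IGF-binding proteins, averaged 11.90 ± 0.02 in STZ FK1706 pools, 11.82 ± 0.09 in STZ vehicle pools and 11.68 ± 0.09 in normal vehicle pools (SD, n = 3 each). Its difference between STZ FK1706 and normal vehicle was 0.21 (SE 0.06, adjusted p = 0.377 by limma). Ide, which degrades insulin, was 0.19 higher in STZ FK1706 than in STZ vehicle pools (SE 0.11, adjusted p = 0.999 by limma). On the deposited scale 3 of the 7 differences between STZ vehicle and normal vehicle were positive.

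Downstream of the receptors, Rictor, the scaffold of mTOR complex 2, which activates Akt, had the largest moderated t of the PI3K, Akt and mTOR list against normal. It averaged 8.92 ± 0.09 in STZ FK1706 pools, 8.82 ± 0.09 in STZ vehicle pools and 8.55 ± 0.07 in normal vehicle pools (SD, n = 3 each). STZ vehicle differed from normal vehicle by 0.26 (SE 0.10, adjusted p = 0.509 by limma) and STZ FK1706 from normal vehicle by 0.36 (SE 0.10, adjusted p = 0.377 by limma). Foxo3, a transcription factor that Akt keeps out of the nucleus, differed from normal vehicle by 0.20 in STZ vehicle pools and 0.19 in STZ FK1706 pools (SE 0.08 each, adjusted p = 0.536 and 0.595 by limma). Both genes had all STZ pools above all normal pools, without passing the test. Of all 9520 probe sets, 6.13% lay wholly above normal in STZ vehicle pools and 5.89% in STZ FK1706 pools. Both genes were picked by their moderated t, so the separation only describes them.

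The genes with the largest moderated t in the other lists did not pass either. Between STZ vehicle and normal vehicle they were the ubiquitin ligase Cbl at 0.13, the Ras exchange factor Sos1 at 0.13, the kinase Jak2 at -0.17 and the lipid phosphatase Inppl1 at -0.21. Between STZ FK1706 and STZ vehicle they were the mTOR complex 1 scaffold Rptor at 0.27, the GTPase Nras at 0.24, Inppl1 at 0.15, Stat5b at -0.16, the receptor adaptor Grb10 at -0.21 and the FoxO-regulated factor Klf15 at -0.29. Between STZ FK1706 and normal vehicle they were Cbl at 0.17, Sos1 at 0.15, Ptpn11 at -0.14 and Stat5a at -0.09. Their limma adjusted p-values ranged from 0.592 for Inppl1 to 0.819 for Jak2 in the first comparison, and each was 0.999 in the second. In the third they ranged from 0.654 for Cbl to 0.868 for Stat5a.

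Markers of other cell types moved with some of these values. The lists were chosen with earlier results of these data known, so calls within them are a description and no independent test. The summed signal of 10 fibroblast and matrix genes ranged from 25803 to 30979 in STZ FK1706 pools, from 23386 to 28711 in STZ vehicle pools and from 28720 to 38550 in normal vehicle pools, and 2 of the 10 fell in STZ vehicle against normal vehicle by limma. These were Col1a1 and Col3a1, chains of the fibrillar collagens, at -0.82 (SE 0.10, adjusted p = 0.0115) and -0.54 (SE 0.07, adjusted p = 0.0135). The summed signal of 6 cartilage and bone genes ranged from 1591 to 2015 in STZ FK1706 pools, from 1379 to 1788 in STZ vehicle pools and from 2239 to 2752 in normal vehicle pools, and 1 of the 6, Col2a1, fell, at -1.18 (SE 0.14, limma adjusted p = 0.0135). Like Igf1 and Igfbp5, both sums were lower in STZ vehicle than in normal vehicle pools. Bglap, Ibsp, Mmp9 and Mmp13, further markers of bone, were below the filter. Without the STZ vehicle array of week 2 or 3, or the normal array of week 3, 0 probe sets passed in this comparison, the collagens included. The part of these cells in the Igf1 and Igfbp5 differences was not tested.

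Sums of other lists overlapped between STZ vehicle and normal vehicle pools. The macrophage list of 6 genes summed to 5425 to 6303 in STZ FK1706 pools and 5408 to 6078 in STZ vehicle pools. In normal vehicle pools it summed to 5880 to 6559. By week, the normal macrophage sums were 5880, 6559 and 6382. The STZ vehicle sums of the same weeks were lower, at 5408, 6078 and 5517. So were the STZ FK1706 sums, at 5425, 6303 and 5606. Between STZ vehicle and normal vehicle, 5 of the 6 macrophage genes were lower and 1 higher, with a median difference of -0.15. With limma, 1 of them had an unadjusted p under 0.05. The 14 sensory neuron genes summed to 69497 to 72555 in STZ FK1706 pools, 69717 to 71213 in STZ vehicle pools and 70549 to 72189 in normal vehicle pools. Satellite glia, with 6 genes, summed to 25345 to 25956 in STZ FK1706 pools, 25355 to 26378 in STZ vehicle pools and 25212 to 27048 in normal vehicle pools. The neuronal and satellite glial sums thus stayed in 1 narrow range in all pools. The 7 Schwann cell genes summed to 29957 to 31716 in STZ FK1706 pools, 28898 to 33381 in STZ vehicle pools and 32590 to 33865 in normal vehicle pools. The STZ FK1706 sums thus all lay below the normal ones. Of the 9520 single probe sets 5.97% did so too, but a share of single probe sets is not a like measure for a sum. The STZ vehicle sums, at 33381, 28898 and 31639, lay below the normal sum of the same week, at 33865, 32590 and 33723. With limma, 0 genes of these 4 lists passed in STZ vehicle against normal vehicle (4 at an unadjusted p under 0.05). The 7 Schwann cell genes had a median difference of -0.07, and 7 of 7 were lower on the quantile scale and 6 of 7 with a common trimmed mean. Genes of neutrophils and mast cells summed to 1278 to 2593 in STZ FK1706 pools, 921 to 1745 in STZ vehicle pools and 1585 to 2187 in normal vehicle pools. The 4 tested had a median difference of -0.68 between STZ vehicle and normal vehicle, and 4 of 4 were lower under each scaling, 3 at an unadjusted p under 0.05 and 0 after adjustment. Tpsab1 and Cpa3, which define mast cells, were below the filter. Skeletal muscle genes summed to 2246 to 3794 in STZ FK1706 pools, 2243 to 3943 in STZ vehicle pools and 2842 to 6035 in normal vehicle pools. The 7 tested had a median difference of -0.47 and were lower under each scaling, 0 of them at an unadjusted p under 0.05. Acta1, a skeletal muscle actin, was uneven, with weekly differences between STZ vehicle and normal vehicle of 0.30, -2.28 and 0.06. The macrophage marker Cd68 lay below the filter. The part of the cells of these lists in the Igf1 and Igfbp5 differences was not tested.

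**Figure D5:**
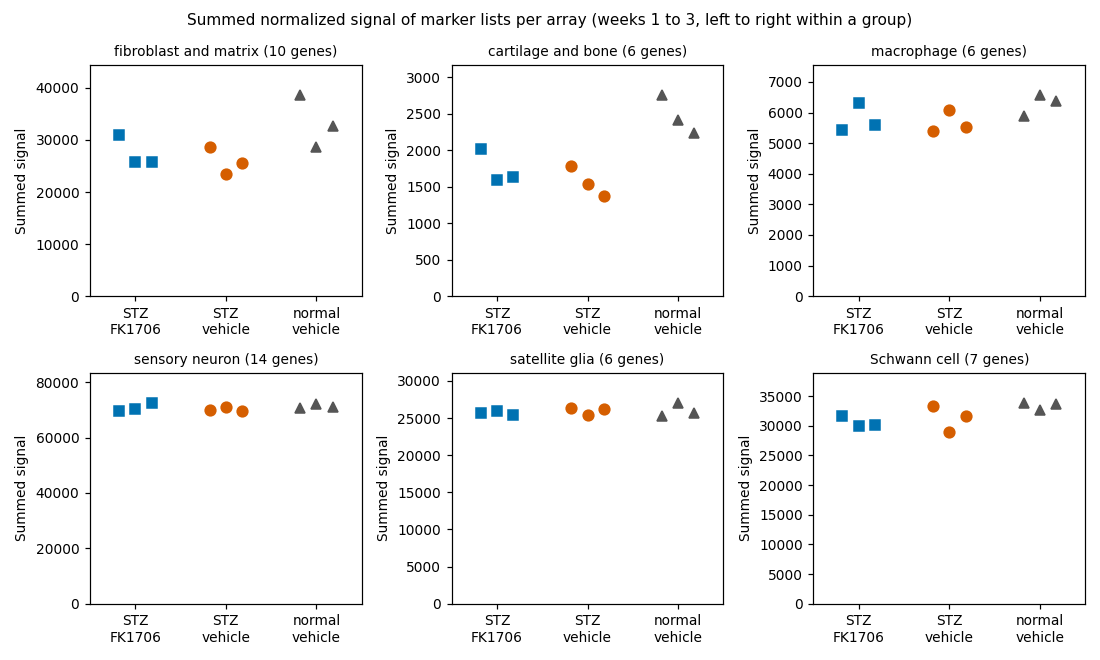
Summed normalized signal (y axis, linear, starting at 0) of the genes above the filter in 6 marker lists, for each of the 9 pools, with STZ FK1706, STZ vehicle and normal vehicle from left to right (x axis) and weeks 1 to 3 from left to right within a group. The fibroblast and matrix sums reach 38550 in a normal pool against at most 28711 in STZ vehicle pools, and the sensory neuron sums stay between 69497 and 72555 in all pools.

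The genes whose signal followed each member most closely over the 9 arrays were found by Pearson r, as a description over arrays that share groups and weeks. For Igf1 1388469_at they were the collagen Col12a1 (r = 0.97), the immediate early transcription factor Egr1 (r = 0.97) and Ost4 (r = 0.96). For Igfbp5 1370960_at they were Tgfbi, a matrix protein (r = 0.95), the microfibril protein Fbn1 (r = 0.94), which is also on the fibroblast and matrix list, and Fam114a1 (r = 0.92). For Igf1r they were Samd1, Rev1 and Paip1 (r = 0.93, 0.92 and 0.92), and for Insr Gid4, Trim41 and Phaf1 (r = 0.93, 0.91 and 0.91). For Igf2r 1386872_at they were Zfyve27, Aplp2 and Hprt1 (r = 0.96, 0.95 and 0.94), for Igf2 Dot1l, Lin7c and Afap1l1 (r = 0.94, 0.93 and 0.91), and for Igfbp2 the cadherin Cdh2, Rabep1 and Aspa (r = 0.97, 0.92 and 0.92).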

How the data were processed

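The authors deposited 1 linear intensity for each probe set and array, computed with MAS5 per the submitters' processing notes, with the version not given in the sources. From these values, log2(intensity + 18.7) was taken, the offset being the 10th percentile of all non-control values, and arrays were quantile normalized. Testing was limited to probe sets whose mean reached the 40th percentile (log2 7.36), 9520 of 15866, after 57 controls had been left out. Of the 15866, 12783 had 1 gene symbol in the platform annotation, 312 several and 2771 none, and 12748 of the single symbols were found in the GRCr8 RefSeq gene table, which changed 0 of them. Probe sets of a gene were kept apart.

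Models used limma 3.58.1 in R 4.3.3 (lmFit, eBayes with a trend). All 9 arrays entered a fit of group plus week, both as factors, which left 4 residual degrees of freedom. A moderated F test compared weeks, and a linear week term per group (2 residual degrees of freedom) tested trends. P-values are two-sided and Benjamini-Hochberg adjusted over all tested probe sets. Week served as the block, because each week has 1 pool of each group, and pools of the same week deviated from their group means with r from -0.00053 to 0.32. The steps were also run on simulated data with errors independent between arrays and no shared week effect beyond the planted changes. That setting differs from these arrays, so it does not measure the error rate here. The number of arrays limits the precision, and arrays correlated with r from 0.969 to 0.981.

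The members and lists were chosen with earlier results of these data known. All member probe sets are named, with the pathway gene of the largest moderated t per list and comparison, pathway genes that pass, the 3 most alike genes per member and representative markers. Col3a1, Prph, Igfbp4, Ins1, Ins2, Insrr, Ghr and the 4 bone markers below the filter were named after their values had been seen. Alternatives changed the scaling, offset, filter, block, prior trend and probe sets per gene, or left out an array or a week.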

Additional observations from a re-analysis of the deposited data

How the results depend on the processing

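Igf1 1388469_at was lower in STZ vehicle than in normal vehicle pools under all 21 alternatives, by -0.89 to -0.72, and was called in 10 of them, with limma adjusted p from 0.00335 to 0.476. Igf1 was named by this same comparison, so these calls describe it and carry no weight as a test. The count of 6 probe sets called in that comparison became 12 on the deposited scale (1 higher and 11 lower, against 1 and 5), 0 without the filter, 1 with no replicate block, 0 with no trend in the prior, 1 without week 1, 2 without week 2, 0 without week 3 and 0 to 11 without single arrays. Its member count of 1 became 0 without the filter, with no replicate block, with no trend and without each week in turn, and 0 to 2 without single arrays, with Igf1 1370333_a_at joining when the normal week 1 array was left out. For STZ FK1706 against normal vehicle, 0 became 89 on the deposited scale (1 higher and 88 lower, 2 of them members), 1 with a common trimmed mean, 2 with the filter at the 60th percentile, 1 with 1 probe set per gene, 2 without week 2 and 0 to 1 without single arrays. STZ FK1706 against STZ vehicle stayed at 0 under every alternative run. For weeks, 5 became 5936 on the deposited scale (7 of them members), whose median falls with week, and 1, 0, 0, 0, 18 and 0 with a common trimmed mean, no filter, no trend, and without week 1, 2 and 3, and 0 to 7 without single arrays. The trend counts of 0 became 1 and 1 on the deposited scale, 1 with the 60th percentile filter for STZ vehicle against normal vehicle, and 0 to 33 and 0 to 38 without single arrays. Week 3 minus week 1 reversed on the deposited scale for Igf1r (-0.14), Igf2r 1367636_at (-0.074) and Insr (-0.12). Without single arrays that value ran from -0.284 to 0.058 for Igf2 1367571_a_at, from -0.030 to 0.0032 for Igf2r 1386872_at and from -0.148 to 0.069 for Igfbp2, changing sign. Otherwise the cause of these changes was not tested. The number of arrays limits all values, and low signal limits Insr, Igfbp5 1387347_at and the 3 dim Igf2 probe sets.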
